A study of Mus musculus with 14 samples.

Results

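The Hox genes encode homeodomain transcription factors and lie in 4 clusters, HoxA to HoxD. All genes of these clusters that were named in the expression tables of EpH4 and EpRas cells were examined, with membership set by symbol alone. They were 39 of the 23284 genes of each table. This family was chosen with earlier results of these data known. The 38 described below comprised 10 genes in HoxA, 10 in HoxB, 9 in HoxC and 9 in HoxD, and counts are over these 38. In the embryo, Hox genes are switched on in the order in which they lie along a cluster, and genes with low numbers act toward the head and genes with high numbers toward the tail. Their proteins bind DNA together with cofactors of the TALE class, such as Pbx and Meis proteins, while Polycomb group proteins keep silent Hox genes off and Trithorax group proteins keep active ones on. In the mammary gland, Hox genes of several clusters take part in ductal growth and alveolar development.

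EpH4 cells are epithelial cells of the mouse mammary gland kept as a line. Transformation of this line with H-Ras gave EpRas cells. EpH4 cells were grown in 10% fetal bovine serum and EpRas cells in 4%, so that serum and transformation cannot be told apart in any comparison between the lines, and each line is a single cell line. The untransfected groups were EpH4 and EpRas cells left untreated or treated with TGF-β3 (1 ng/ml) for 48 h, with 2 libraries per group and 8 in all. A further 6 libraries came from EpRas cells transfected with the control siRNA siNC, with siRNA pair 1 against Etv4 and Etv5 or with siRNA pair 2 against the same genes, each with and without TGF-β, and there was 1 library per condition. The study calls such libraries of one group biological replicates. Neither it nor the labels say whether they came from separate cultures, and p-values measure the spread between these libraries. Expression was given as FPKM, fragments scaled by the length of the transcript and by a factor for the size of the library. The 2 tables were processed separately, and values were tested within a table only.

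Depth was read from the smallest steps between low FPKM values. Relative to the first library of untreated EpH4 cells it was 0.609 to 1.36 in the untransfected libraries and 1.26 to 2.2 in the siRNA libraries. The sums of FPKM over all genes were 502262 to 633763. Of the 9 luminal epithelial markers listed, Krt18 was at 868 FPKM or more in every library. Elf5 was at 0.491 FPKM or less in all of them, and Krt19 was at 0 in EpH4 cells. The basal marker Krt5 was at 0.086 FPKM or less. Of the 8 fibroblast markers listed, Lum and Thy1 were at 0 in all 14, whereas Col1a1 ranged from 0.629 to 224 FPKM, and the sum of the 8 was 5.5 to 247 FPKM. Etv4 and Etv5 were lowered in the knockdown libraries. Etv4 was at 57.4 and 64.3 FPKM with siNC, at 11.6 and 12.6 with pair 1 and at 27.9 and 18.9 with pair 2, without and with TGF-β. Etv5 was at 8.85 and 5.34 with siNC and between 1.20 and 1.61 FPKM in the 4 knockdown libraries.

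Hox genes share the homeobox, and the sequences of Hoxa5 and Hoxb6, the members of HoxA and HoxB with the highest mean FPKM over the untransfected libraries, show how far members differ there. The homeobox is the stretch of 180 bases that encodes the DNA-binding homeodomain. The capitals mark 18 bases in the part that encodes the recognition helix, the helix that lies in the major groove of DNA. The sequences are from GENCODE M21 transcripts.
Hoxa5: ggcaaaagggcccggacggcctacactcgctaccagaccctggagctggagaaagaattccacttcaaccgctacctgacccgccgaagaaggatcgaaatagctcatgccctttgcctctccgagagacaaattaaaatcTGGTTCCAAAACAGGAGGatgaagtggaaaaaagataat
Hoxb6: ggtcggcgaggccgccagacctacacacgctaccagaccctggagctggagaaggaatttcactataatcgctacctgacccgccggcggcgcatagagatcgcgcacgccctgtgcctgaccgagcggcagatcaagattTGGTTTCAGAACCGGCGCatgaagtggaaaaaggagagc
Over these 180 bases, Hoxa5 and Hoxb6 were 75% identical. The longest run of identical bases that Hoxa5 shared with any other Hox transcript was 32 bases, with Hoxb7. Among the expressed members, the longest such run was 52 bases, between Hoxa6 and Hoxb4, followed by 50 bases between Hoxb9 and Hoxc9. Reads within these runs could be assigned to either gene. Hoxa3, Hoxa4, Hoxa5 and Hoxa6 were listed under 1 common locus of the authors' table, as were Hoxd3 and Hoxd4. Whether the counting used the strand is not given in the sources used here, so reads from antisense transcripts within the clusters could not be told apart from those of the genes.

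The genes described lie at chr6:52162511-52260880 (HoxA), chr11:96194361-96368253 (HoxB), chr15:102921131-103036852 (HoxC) and chr2:74668310-74765142 (HoxD) of mm10, as given by the loci of the authors' table. A Hox gene was taken as expressed at 1 FPKM or more in any library of a table. In the untransfected cells 12 of the 38 genes were expressed, 6 in HoxA and 6 in HoxB, and no gene of HoxC or HoxD was. Of all genes in this table, 50.2% reached this level. In the siRNA libraries 11 of the 38 genes were expressed, against 49.4% of all genes in that table. These were 10 of the same 12 genes and Hoxa7, which was at 1.15 FPKM in 1 library, while Hoxa4 and Hoxb5 stayed at or below 0.771 FPKM. Of the 26 genes at positions 1 to 9, 11 were expressed in one table or the other, and of the 12 genes at positions 10 to 13 only Hoxa10 and Hoxb13 were. Within HoxA and HoxB these were 11 of 16 and 2 of 4 genes, respectively.

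The expressed genes of HoxA were Hoxa2 to Hoxa7 and Hoxa10. Hoxa9 was at most at 0.192 FPKM, and Hoxa11 and Hoxa13, which pattern the limbs and the genital tract, were listed at 0 in all 14 libraries. In HoxB the expressed genes were Hoxb3 to Hoxb6, Hoxb9 and Hoxb13. Hoxb1 was listed at 0 in all 14 libraries, Hoxb7 was above 0 in 1 library only (0.183 FPKM), Hoxb2 reached 0.555 FPKM and Hoxb8 0.919 FPKM. The highest value in HoxC was for Hoxc6, which was at 0.245, 0, 0 and 0.342 FPKM in the EpH4 libraries, untreated and then with TGF-β, at 0.201, 0, 0 and 0.184 FPKM in the EpRas libraries, at 0.223 FPKM with siNC and 0.281 with pair 1, both with TGF-β, and at 0 in the other 4 siRNA libraries. The highest in HoxD was for Hoxd3, at 0.201 FPKM with siNC and TGF-β, 0.103 in the first untreated EpRas library and 0 in the other 12. In all, 12 of the 38 genes were listed at 0 in every library, of which 7 belonged to HoxD. At this depth 0 reads does not show that a gene was silent.

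**Figure D1:**
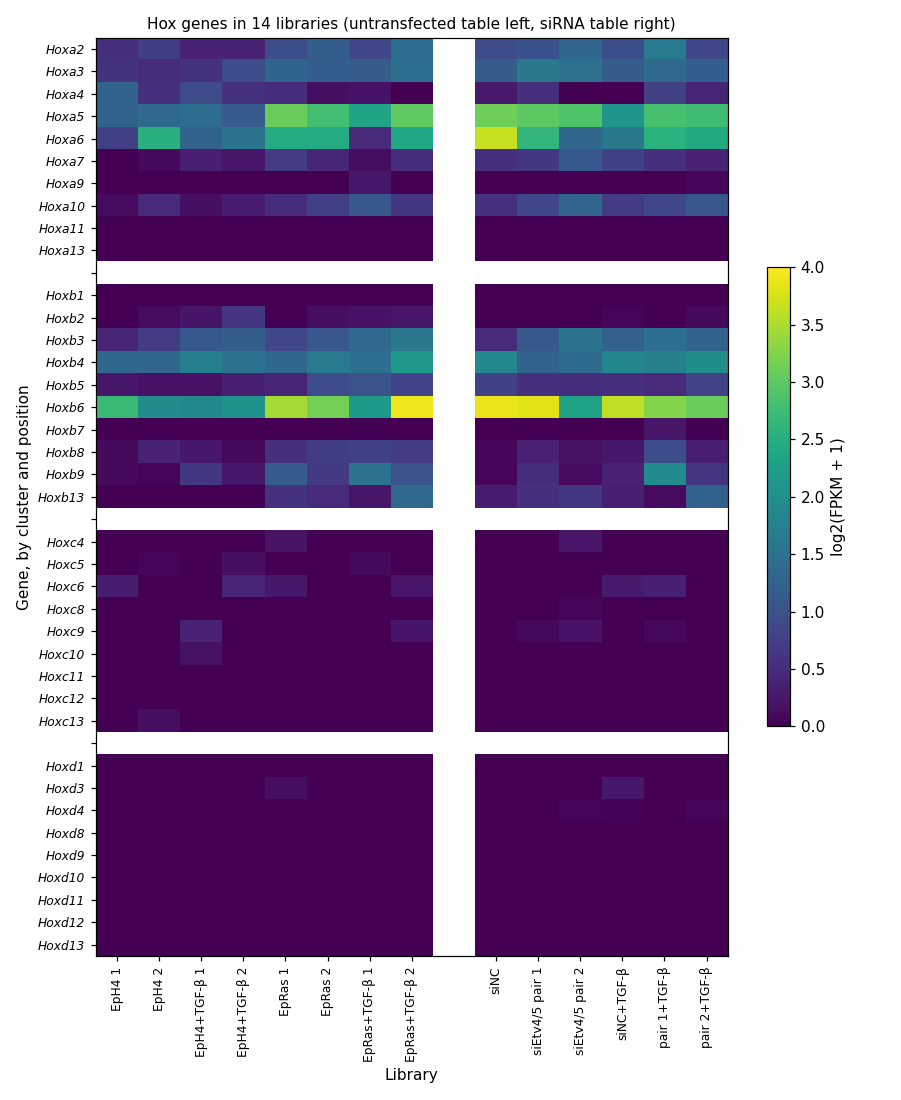
Expression of 38 Hox genes, as log2(FPKM + 1), in rows by cluster and position, and in columns by library, with the 8 untransfected libraries on the left and the 6 siRNA libraries on the right. The signal lies in HoxA and HoxB, while no HoxC or HoxD gene exceeded 0.342 FPKM.

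Hoxa5, Hoxa6 and Hoxb6 were prominent among the members. On the FPKM scale, which takes account of length, Hoxb6 was the highest HoxB gene in the untransfected cells, with 5.47 and 2.91 FPKM in untreated EpH4 cells, 2.74 and 3.11 with TGF-β, 9.98 and 7.91 in untreated EpRas cells and 3.54 and 13.9 with TGF-β. Hoxa5, described below, had the highest mean of the HoxA genes over all 8 untransfected libraries. In the 4 EpH4 libraries, however, Hoxa6 had the higher mean of this pair, ranging from 0.684 to 4.79 FPKM against 1.23 to 1.69 FPKM for Hoxa5. That order rested on the second untreated EpH4 library (4.79 FPKM, 19 reads), and Hoxa6 was at 0.684, 1.42 and 1.91 FPKM in the others. The sum of FPKM over the 38 genes was 12.5 to 14.2 in the 4 EpH4 libraries, 19.0 to 39.6 in the 4 untransfected EpRas libraries and 23.0 to 40.5 in the siRNA libraries, whose levels come from the separate table. Hoxa5, Hoxa6 and Hoxb6 together held 42.0 to 81.7% of this sum, with the lowest shares in the first EpRas library with TGF-β (42.0%) and in both EpH4 libraries with TGF-β (45.4 and 47.7%). The HoxA genes held 36.7 to 59.2% of it in EpH4 cells and 39.7 to 50.9% in untransfected EpRas cells. All 4 EpRas sums lay above all 4 EpH4 sums.

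To examine how Hox expression differed between the parental and the transformed line, EpRas cells were compared with EpH4 cells without and with TGF-β. Hoxa5 was higher in EpRas cells under both conditions, and it was the only one of the genes described that passed the test in either comparison. The test was limma on log2(FPKM + 1) over 11683 genes, with the Benjamini-Hochberg adjustment, and log2 differences below are on this scale, which understates the change of low genes. Of the 38 genes 12 passed the filter of 1 FPKM in any untransfected library, and 26 were not tested. Without TGF-β, 1 of the 12 was called higher and none (0) lower, where 8.41% of all genes tested were called higher and 9.53% lower; 3 of the 12 had an unadjusted p below 0.05, as did 32.5% of all genes. With TGF-β, 1 was called higher and none (0) lower, against 9.05% and 12.9% of all genes, and 7 of the 12 had an unadjusted p below 0.05, as did 36.2% of all genes. Without the first EpRas library with TGF-β, 4 of 10 tested members were called without TGF-β and 4 with it, against 23.1% and 19% of all genes. Without the second, 3 of 11 were called in each comparison, against 22.3% and 24.7%. The median log2 difference of the 12 was 0.49 without and 0.64 with TGF-β, beside 0.00 and -0.0036 for all genes, but 6 of the 12 reached 1 FPKM in EpRas cells only and 1 in EpH4 cells only, which sets the direction of these members.

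Hoxa5, which is needed for the development of lung and mammary epithelium, showed the clearest difference. It was at 1.42 and 1.57 FPKM in untreated EpH4 cells, 1.69 and 1.23 FPKM after TGF-β, 7.51 and 5.92 FPKM in untreated EpRas cells and 4.03 and 7.16 FPKM in treated ones. Every EpRas library was above every EpH4 library. The mean over both treatments was 1.48 ± 0.199 FPKM for EpH4 and 6.15 ± 1.57 FPKM for EpRas (SD, n = 4 libraries each). The log2 difference was 1.62 (SE 0.253, limma adjusted p = 0.0050) without and 1.39 (SE 0.253, adjusted p = 0.0072) with TGF-β. These values rested on 12 to 21 reads per EpH4 library and 34 to 66 per EpRas library. Without the second EpH4 library with TGF-β, the adjusted p with TGF-β was 0.064 and 0 of the 12 were called in that comparison, against 10.9% of all genes. In the siRNA libraries of EpRas cells, from the separate table, Hoxa5 was at 3.28 FPKM or more in all 6.

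**Figure D2:**
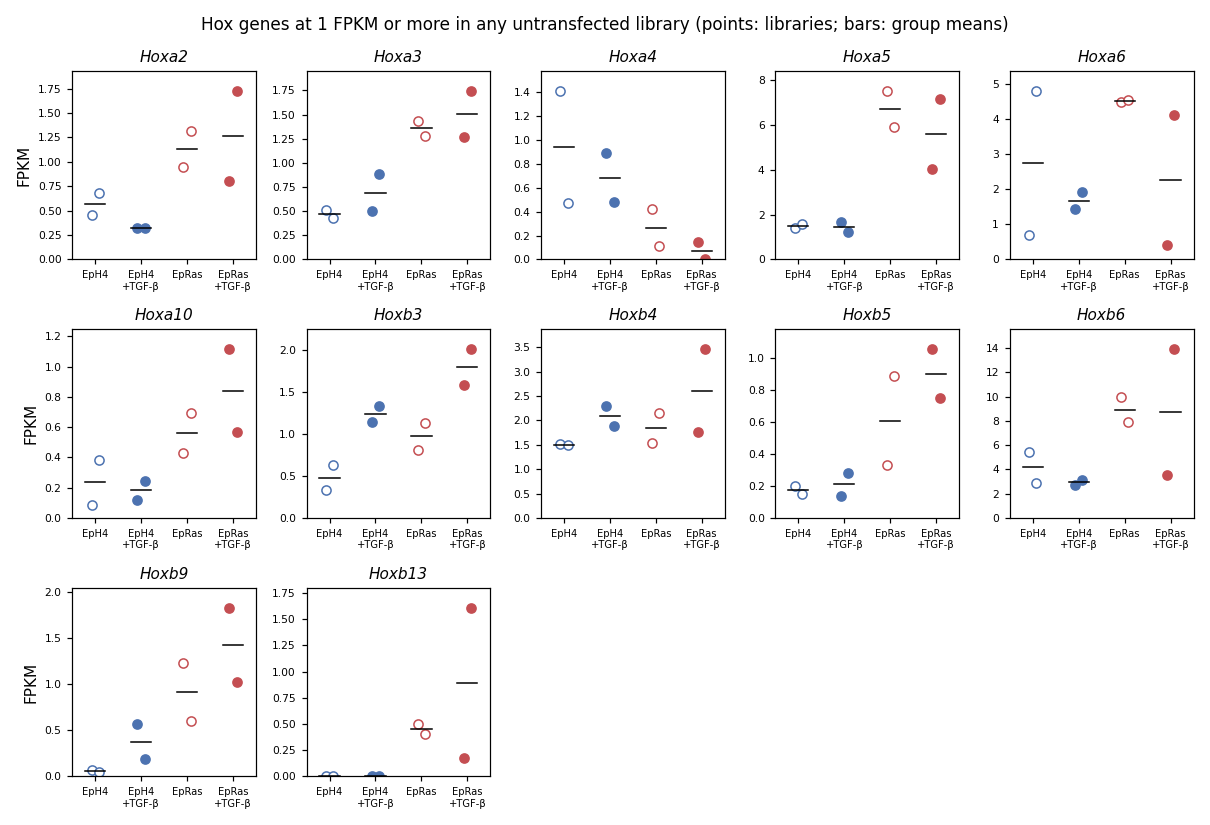
FPKM of the 12 Hox genes that reached 1 FPKM in any untransfected library, by group, with each point a library (n = 2 per group) and each bar the group mean. Hoxa5 lies above 4.02 FPKM in all EpRas libraries and below 1.70 FPKM in all EpH4 libraries, and for Hoxb3 both libraries with TGF-β lie above both untreated ones in each line.

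The promoter of Hoxa5 is shown with that of Hoxa3, another gene of the same listed locus, which was also higher in EpRas cells over both treatments (below). Each stretch runs from 250 bases before to 50 bases after the start of the transcript, is on the minus strand, and comes from RefSeq on GRCm38.p6. Hoxa5 is at chr6:52204538-52204837 and Hoxa3 at chr6:52213018-52213317.
Hoxa5: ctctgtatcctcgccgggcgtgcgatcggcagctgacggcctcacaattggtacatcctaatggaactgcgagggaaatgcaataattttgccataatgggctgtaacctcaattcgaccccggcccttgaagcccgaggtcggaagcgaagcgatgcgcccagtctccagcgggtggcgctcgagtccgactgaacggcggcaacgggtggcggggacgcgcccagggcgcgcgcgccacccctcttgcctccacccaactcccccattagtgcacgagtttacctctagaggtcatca
Hoxa3: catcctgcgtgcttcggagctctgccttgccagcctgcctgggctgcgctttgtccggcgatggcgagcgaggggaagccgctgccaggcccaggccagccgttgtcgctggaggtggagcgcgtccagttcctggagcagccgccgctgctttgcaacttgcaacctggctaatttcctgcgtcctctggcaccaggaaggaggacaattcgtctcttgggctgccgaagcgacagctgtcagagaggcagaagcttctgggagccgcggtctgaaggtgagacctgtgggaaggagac
Letters of 5 motifs were searched on both strands and would be in capitals, and neither stretch held any. Motif letters of ETS factors such as Etv4 and Etv5, CCGGAAGT, were in 3.89% of 32851 promoter stretches of the same length and in 0 of the 24 stretches given for 22 of the 38 Hox genes. Those of AP-1, TGACTCA, were in 5.20% of all stretches and in 1 of the 24. Those of Hox with Pbx proteins, TGATNNAT, were in 8.85% and in 4 of the 24, among them that of Hoxa2. Those of Cdx factors, TTTATG, were in 11.9% and in 5 of the 24. Those of the TATA box, TATAAA, were in 13.6% and in 4 of the 24. For the expressed members 8 stretches were given, with 0, 0, 1, 1 and 1 matches in this order. Hoxa4, Hoxb3, Hoxb5, Hoxb6, Hoxb9 and Hoxb13 had no entry.

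Several other members were higher in EpRas cells in every library without passing the test under either condition. Hoxa3 was at 0.509, 0.429, 0.504 and 0.880 FPKM in the 4 EpH4 libraries (untreated, then with TGF-β) and at 1.43, 1.28, 1.27 and 1.74 FPKM in the 4 EpRas libraries, with adjusted p = 0.051 without and 0.078 with TGF-β (limma). Hoxb9, which is expressed in developing mammary epithelium, was at 0.068, 0.050, 0.567 and 0.190 FPKM in EpH4 cells, whereas the EpRas libraries had 1.23, 0.602, 1.83 and 1.02 FPKM, with adjusted p = 0.066 without and 0.065 with TGF-β. Among the siRNA libraries of EpRas cells, from the separate table, it was at 0.054 and 0.310 FPKM with siNC, and 5 of the 6 libraries lay at 0.054 to 0.523 FPKM, within the range of the EpH4 libraries. Hoxb13, known from the prostate, was listed at 0 in all 4 EpH4 libraries and was at 0.503, 0.405, 0.179 and 1.61 FPKM in EpRas cells. Its EpRas values came from 2, 3, 1 and 7 reads. Against a floor of 3 reads over the 4 EpH4 libraries, its level over the 4 EpRas libraries was 5.51-fold higher. It was 3.19-fold higher without the second EpRas library with TGF-β, which held 7 of the 13 reads. These folds did not include counting error. With counting error only, the lower ends of the exact binomial intervals (Clopper-Pearson, 95%) for the read ratios were 3.87 and 1.88, respectively. Hoxa2, Hoxa10 and Hoxb5 also lay higher in all 4 EpRas libraries than in any EpH4 library. Hoxa2, active in the hindbrain, was at 0.460, 0.679, 0.319 and 0.322 FPKM in EpH4 cells, whereas the EpRas libraries had 0.944, 1.32, 0.805 and 1.73 FPKM. Hoxa10, known from the uterus, was at 0.087, 0.384, 0.120 and 0.243 FPKM in EpH4 cells, whereas the EpRas libraries had 0.428, 0.691, 1.11 and 0.569 FPKM. Hoxb5 was at 0.201, 0.148, 0.139 and 0.281 FPKM in EpH4 cells, whereas the EpRas libraries had 0.330, 0.887, 1.05 and 0.753 FPKM.

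In all, 7 of the 12 tested members had every EpRas library above every EpH4 library, where 12.8% of all genes tested did. However, 6 of these 7 passed the filter through EpRas cells alone, and of the 5 members at 1 FPKM or more in both lines, Hoxa5 was the only one. Hoxa4 alone had every EpRas library below every EpH4 library, as did 15.1% of all genes. It was at 1.41, 0.473, 0.889 and 0.478 FPKM in EpH4 cells, whereas the EpRas libraries had 0.421, 0.113, 0.150 and 0 FPKM, and it passed the filter through EpH4 cells alone. These values rested on 4 to 11 reads per EpH4 library and at most 2 per EpRas library. When the lines were compared over both treatments together, a contrast chosen after seeing the data, 5 members were called higher in EpRas cells (Hoxa2, Hoxa3, Hoxa5, Hoxb5 and Hoxb9) and none (0) lower, against 15.7% and 18% of all genes, and 10 of the 12 had an unadjusted p below 0.05, as did 44.4% of all genes. Of these 5, all but Hoxa5 passed the filter through EpRas cells alone, which sets their direction, and 2 members were called at a filter of a mean of 1 FPKM. The log2 differences over both treatments were 1.5 for Hoxa5, 0.82 for Hoxb9, 0.63 for Hoxa3, 0.59 for Hoxa2 and 0.54 for Hoxb5, with limma adjusted p from 0.00066 to 0.035. For Hoxa4 the log2 difference was -0.61, just short of the threshold (limma adjusted p = 0.051). With 1 library left out, Hoxa2 passed in 3 of 8 fits and Hoxb5 in 2 of 7, while Hoxa3, Hoxa5 and Hoxb9 passed in all 8. The count was 3 without the first untreated EpH4 library, without either EpH4 library with TGF-β, and without the second untreated EpRas library, against 22.6 to 27.3% of all genes in either direction.

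Hoxb4 and Hoxa6 showed no difference beyond the spread between libraries. Hoxb4, which supports the growth of blood stem cells, was among the steadiest members at 1.49 to 2.29 FPKM in EpH4 cells, while EpRas libraries had 1.54 to 3.45 FPKM. Its log2 difference was 0.18 without TGF-β (95% interval -0.41 to 0.77). Hoxa6 varied within groups, with 0.684 and 4.79 FPKM in untreated EpH4 cells (2 and 19 reads), 1.42 and 1.91 with TGF-β, 4.49 and 4.53 in untreated EpRas cells and 0.399 and 4.10 FPKM with TGF-β (1 and 8 reads). Hoxb6 was 2.48-fold higher in the mean of the 4 EpRas libraries, but the first EpRas library with TGF-β (3.54 FPKM) overlapped the EpH4 libraries, and adjusted p was 0.23 without and 0.17 with TGF-β. Without that library Hoxb6 was called higher in both comparisons and over both treatments together (adjusted p = 0.0029). Markers of cell states moved with the line as well. Of 8 tested luminal markers, 1 (Krt19) was higher and 4 (Cdh1, Cldn3, Cldn4 and Cldn7) were lower in EpRas cells without TGF-β, and with it the same genes and Epcam, which was lower. Of 4 tested markers of mammary basal epithelium, 1 (Acta2, log2 difference 0.76, limma adjusted p = 0.046) was higher and 3 were lower in EpRas cells without TGF-β, and 4 were lower with it. Krt19, at 0 in EpH4 cells, passed the filter through EpRas cells alone, and Krt17 and Trp63 through EpH4 cells alone. Of 4 tested fibroblast markers, Pdgfra and Pdgfrb were higher and Col1a1 and Col1a2 lower in EpRas cells without TGF-β, and Col1a1, Col1a2 and Pdgfrb were lower with it (log2 differences -6.09, -3.45 and -0.66). Col1a2, at 0.735 FPKM or less in the untransfected EpRas libraries, passed the filter through EpH4 cells alone, which sets its direction. These marker counts stand beside the shares of all genes given above, 8.41% higher and 9.53% lower without and 9.05% and 12.9% with TGF-β. For basal markers, the summed FPKM of the 6 listed markers was 351 to 898 in EpH4 and 64.8 to 117 in EpRas cells. Their part in the Hox differences was not tested. In bulk RNA, fewer cells with a transcript and less of it per cell cannot be told apart.

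**Figure D3:**
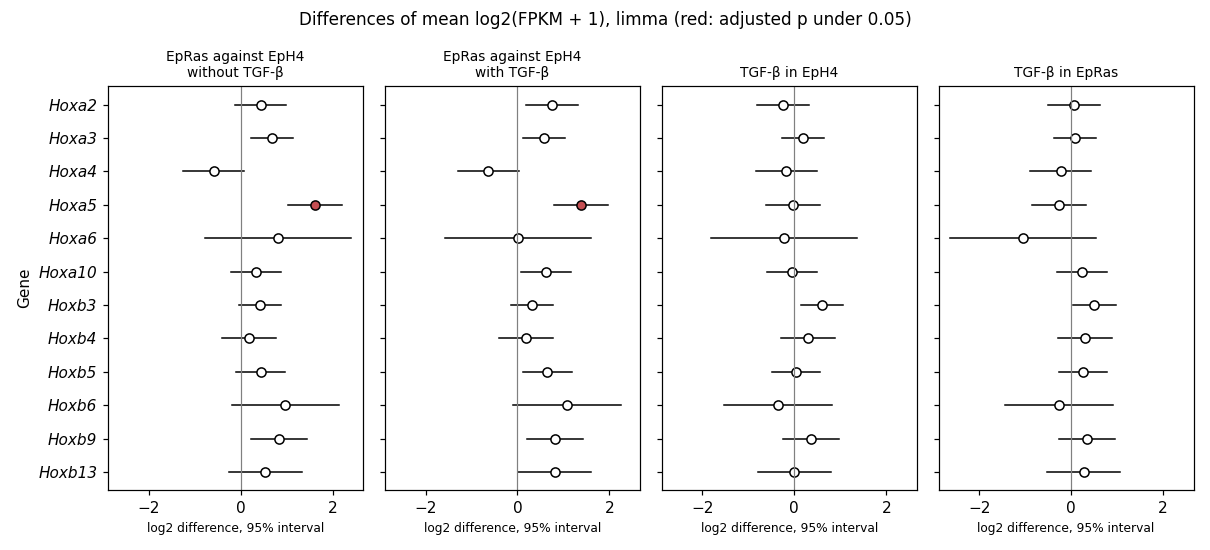
Differences of mean log2(FPKM + 1) for the 12 tested Hox genes in 4 comparisons, with 95% intervals from limma, and red points where the adjusted p was below 0.05. Hoxa5 passes in both comparisons of the lines, and no gene in the comparisons of TGF-β with untreated cells.

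To examine the response to TGF-β, treated and untreated cells of each line were compared. No Hox gene passed the threshold in either line (0 of 12 with limma in EpH4 and 0 of 12 in EpRas cells), where in EpH4 cells 6.12% of all genes tested were called higher and 2.71% lower (8.83% in all), and in EpRas cells 1.66% higher and 1.77% lower (3.43% in all). In each line 1 of the 12 had an unadjusted p below 0.05, Hoxb3, where 23.1% of all genes did in EpH4 and 15.6% in EpRas cells. The difference of the TGF-β effects between the lines passed for 0 of the 12, with 0 at an unadjusted p below 0.05 (11.3% of all genes), against 0.676% of all genes, 0.103% higher and 0.573% lower. None (0) of the 12 had both treated libraries above both untreated ones in one line and below them in the other, as 4.78% of all genes did.

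Hoxb3, which lies in the anterior part of HoxB, had both treated libraries above both untreated ones in each line, as 10.5% of all genes did, without passing the test. It was at 0.328 and 0.630 FPKM in untreated EpH4 cells, 1.14 and 1.33 with TGF-β, 0.808 and 1.13 in untreated EpRas cells and 1.58 and 2.00 with TGF-β. The log2 differences were 0.60 (limma adjusted p = 0.12) and 0.50 (adjusted p = 0.28). For Hoxa5 the log2 difference with TGF-β was -0.03 in EpH4 cells (95% interval -0.62 to 0.56) and -0.26 in EpRas cells (-0.85 to 0.33). Markers of other cell states moved with TGF-β too. All 4 tested fibroblast markers (Pdgfra, Pdgfrb, Col1a1 and Col1a2) rose with TGF-β in EpH4 cells and none (0) changed in EpRas cells by limma, with summed FPKM of the 8 listed markers of 22.7 and 26.8 in untreated EpH4 cells, 247 and 222 with TGF-β and 8.42 to 13.6 in EpRas cells, and Dcn, Lum and Thy1 at 0 in EpH4 cells. Of the 4 tested basal markers, Krt14, Krt17 and Acta2 also rose with TGF-β in EpH4 cells and none (0) changed in EpRas cells. The sum of the 6 listed basal markers was 351 and 414 FPKM in untreated EpH4 cells and 898 and 831 with TGF-β. Of the 8 tested luminal markers, Cdh1 rose with TGF-β in EpH4 cells (log2 difference 0.79, limma adjusted p = 0.018) and none (0) changed in EpRas cells. The sum of the 9 listed luminal markers was 3247 and 3760 FPKM in untreated EpH4 cells and 5142 and 4784 with TGF-β. Beside these counts, 6.12% of all genes were higher with TGF-β in EpH4 cells. The part of these markers in the Hoxb3 values was not tested.

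To examine the role of Etv4 and Etv5, which are ETS family transcription factors, the siRNA libraries of EpRas cells were compared. With 1 library per condition there was no test, and a gene was taken as changed where the mean of both siRNA pairs was at least 2-fold above or below siNC, both pairs lay on the same side, and the higher value was 1 FPKM or more. Without TGF-β, 3 of the 8 members at this level met the rule, Hoxa10 and Hoxb3 higher and Hoxa6 lower, where 5.18% of all genes were higher and 6.52% lower. With TGF-β, Hoxa6 and Hoxb9 were higher among 8 members, where 3.98% of all genes were higher and 6.41% lower (10.4% in all). Hoxa10 and Hoxb3 without TGF-β and Hoxb9 with it were below 1 FPKM with siNC and entered through the knockdown libraries, so that the filter sets their direction, and nothing is read from these counts against the shares of all genes. No member met the rule in the same direction under both conditions. Markers of other cell states moved with the knockdown as well. The summed FPKM of the 8 fibroblast markers was 5.5 with siNC, 25.7 with pair 1 and 16.6 with pair 2 without TGF-β, and 11.7, 43.9 and 22.4 with it, with Lum and Thy1 at 0 throughout. That of the 6 basal markers was 110, 260 and 365 without and 152, 420 and 260 with TGF-β. Single markers went in different directions (values for siNC, pair 1 and pair 2). In untreated cells, Pdgfrb (1.09, 5.25 and 9.35 FPKM) and Krt14 (109, 237 and 365 FPKM) were higher with both pairs. Pdgfra (3.21, 1.76 and 3.67 FPKM) was lower with pair 1 only. In treated cells, Pdgfra (6.79, 2.33 and 3.86 FPKM) and Krt17 (11.5, 4.17 and 2.74 FPKM) were lower with both pairs. The part of these markers in the Hox values was not tested. Intervals given below for ratios of reads are exact binomial (Clopper-Pearson, 95%) and cover counting error only.

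Hoxa6 went in opposite directions. Without TGF-β it was at 11.6 FPKM with siNC, 5.18 with pair 1 and 1.49 with pair 2, and the treated libraries had 2.02, 4.90 and 4.38 FPKM. The read ratio of both pairs to siNC was 0.292 (0.180 to 0.470) without and 2.30 (1.22 to 4.65) with TGF-β. In the untransfected cells the replicates of this gene already differed from 0.684 to 4.79 FPKM within 1 group, a spread that these intervals do not hold. Hoxb3 was at 0.389 FPKM with siNC, 1.15 with pair 1 and 1.89 with pair 2 in untreated cells, then at 1.33, 1.74 and 1.41 FPKM after treatment. Hoxa10 had 0.481, 0.809 and 1.46 FPKM in untreated cells, then 0.632, 0.797 and 1.13 FPKM after treatment. For Hoxb3 and Hoxa10, which have more than 1 annotated start, reads could not be recovered.

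Hoxb9, and Hoxb13 on fewer reads, differed between the siRNA pairs after treatment. With TGF-β, Hoxb13 had 0.088 FPKM with pair 1 and 1.37 with pair 2, from 1 and 14 reads. For Hoxb9, the treated libraries had 0.310 FPKM with siNC, 2.81 with pair 1 and 0.523 with pair 2, from 10, 72 and 12 reads. The read ratio was 9.09 (4.67 to 19.7) for pair 1 and 1.69 (0.669 to 4.36) for pair 2. In untreated cells the values were 0.054, 0.436 and 0.085 FPKM. Of the 11 members at 1 FPKM or more in any siRNA library, Hoxb9 alone was at least 2-fold higher with TGF-β in all 3 transfections (1 of 11, against 2.25% of all genes higher and 2.05% lower, 4.3% in all), with read ratios of 5.75 (0.818 to 249.4) for siNC, 6.45 (3.40 to 13.5) for pair 1 and 6.17 (1.37 to 56.8) for pair 2, from 1, 11 and 2 reads without TGF-β. It passed the filter through 1 treated library alone (pair 1, 2.81 FPKM), which sets its direction, and in untransfected EpRas cells its log2 difference with TGF-β was 0.34 (limma adjusted p = 0.62). Its neighbour Hoxb8, which stayed below 1 FPKM and was outside that count, was also over 2-fold higher with TGF-β in each transfection, on few reads. It was at 0.055 and 0.190 FPKM with siNC (1 and 6 reads) and 0.284 and 0.919 with pair 1 (7 and 23 reads). With pair 2 it was at 0.130 and 0.267 FPKM (3 and 6 reads). In untransfected cells, its means without and with TGF-β were 0.189 and 0.129 FPKM in EpH4 and 0.567 and 0.679 in EpRas cells. It was highest with pair 1 and TGF-β, at 0.919 FPKM, against 0.055 to 0.284 FPKM in the other 5 siRNA libraries. The libraries of pair 1 stood apart in Acta2, a contractile gene, at 23.4 and 202 FPKM in untreated and treated cells, against 0.201 to 13.2 FPKM in the other 4. The part of Acta2 and of the markers above in the Hoxb9 value was not tested.

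**Figure D4:**
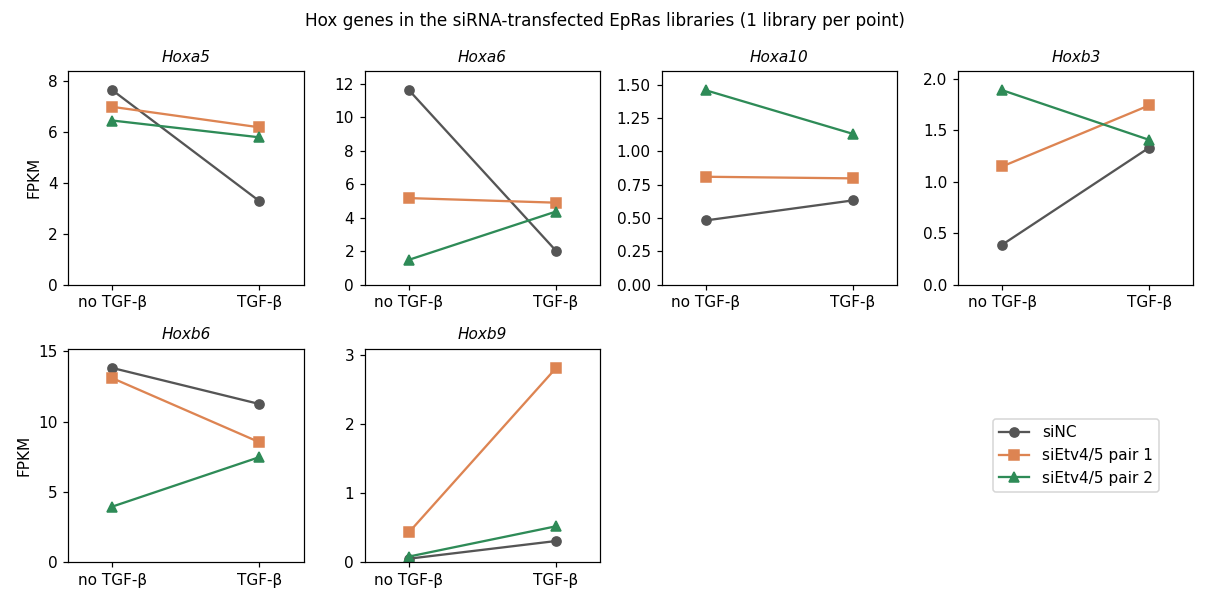
FPKM of 6 Hox genes in the siRNA libraries of EpRas cells without and with TGF-β, with 1 library per point and lines joining the libraries of 1 transfection. Hoxb9 with pair 1 and TGF-β (2.81 FPKM) stands above the other libraries, and siNC is the highest Hoxa6 library without TGF-β and the lowest with it.

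Hoxa5 and Hoxb6 did not meet the rule. Hoxa5 without TGF-β was at 7.63 FPKM with siNC, 6.98 with pair 1 and 6.44 with pair 2, and the read ratio of both pairs to siNC was 0.880 (0.689 to 1.13). The treated libraries had 3.28, 6.18 and 5.78 FPKM, with a read ratio of 1.83 (1.39 to 2.43). The read ratio with TGF-β was 0.429 (0.311 to 0.590) with siNC, 0.885 (0.674 to 1.16) with pair 1 and 0.898 (0.668 to 1.20) with pair 2. Hoxb6 without TGF-β was at 13.8 FPKM with siNC, 13.1 with pair 1 and 3.97 with pair 2, so that the pairs differed, and the treated libraries had 11.3, 8.54 and 7.48 FPKM. Its read ratio of both pairs to siNC was 0.628 (0.496 to 0.799) without and 0.714 (0.574 to 0.890) with TGF-β. For pair 1 without TGF-β it was 0.947 (0.738 to 1.22). Untransfected EpRas libraries of Hoxb6 ranged from 3.54 to 13.9 FPKM, a spread that these intervals do not hold. Other expressed members did not meet the rule either, with Hoxb4 at 1.42 to 2.99, Hoxa3 at 1.26 to 2.03, Hoxa2 at 0.809 to 2.11, Hoxb13 at 0.088 to 1.37 and Hoxa7 at 0.311 to 1.15 FPKM.

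Other genes of the Hox system were given by lists of cofactors, chromatin regulators, neighbours and upstream regulators. Their counts stand beside the same shares of all genes tested, 8.41% higher and 9.53% lower in EpRas cells without TGF-β, 9.05% and 12.9% with it, 6.12% and 2.71% for TGF-β in EpH4 cells and 1.66% and 1.77% for TGF-β in EpRas cells. Of 8 TALE cofactors, 6 were tested and 1, Meis3, was called between the lines, higher in EpRas cells under both conditions. It passed the filter through EpRas cells alone, which sets its direction. It was at 0.216, 0.795, 0.299 and 0.402 FPKM in EpH4 cells, whereas the EpRas libraries had 4.43, 2.57, 1.63 and 3.88 FPKM, and the log2 difference was 1.57 without and 1.41 with TGF-β (limma adjusted p = 0.020 and 0.025). None (0) of the 6 passed for TGF-β in either line. Pbx2 and Pbx3, partners of Hox proteins, were at 17.8 to 33.5 and 3.66 to 6.76 FPKM in the untransfected libraries.

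Of 28 Polycomb group genes, EpRas cells had 4 higher and 1 lower without TGF-β, and 3 higher and 2 lower with it. Phf19, which helps to recruit Polycomb repressive complex 2 to chromatin, was at 0, 0.035, 0 and 0 FPKM in EpH4 cells, whereas the EpRas libraries had 9.31, 8.27, 5.32 and 5.48 FPKM (limma adjusted p = 2.3e-05 without and 4.6e-05 with TGF-β), and it passed the filter through EpRas cells alone. Cbx6, a reader of the mark set by that complex, had 10.6 to 13.5 FPKM in EpH4 and 32.2 to 39.7 FPKM in EpRas libraries. Phc1, a member of complex 1, was lower in EpRas cells, with log2 differences of -0.80 and -0.78. Phf1 and Pcgf5 passed as higher without TGF-β only (0.48 and 0.71), and with TGF-β only Rbbp4 passed as higher (0.64) and Scmh1 as lower (-0.59). The difference between these conditions is the difference of the TGF-β effects between the lines. It passed for none (0) of the 28, against 0.676% of all genes. Cbx7 was the only one of the 28 that passed for TGF-β, lower in EpH4 cells by a log2 difference of -0.95 (adjusted p = 0.016). Of 13 tested Trithorax genes and H3K27 demethylases, none (0) passed without TGF-β and Psip1 alone was higher in EpRas cells with TGF-β (log2 difference 0.87, adjusted p = 0.038).

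Within the clusters, 9 of 22 listed non-coding genes were in the tables and none (0) was tested. Mira, in HoxA, was listed at 0 in the 4 EpH4 libraries, at 0.938 and 0.757 FPKM in untreated EpRas cells and at 0 with TGF-β, and at 0.166 to 1.31 FPKM in the 6 siRNA libraries. Hotair, in HoxC, was at 0.084 FPKM in 1 EpH4 library and at 0 in the other 13. The other 7 were at 0 throughout. Of the genes that flank the clusters 12 were in the tables, and their levels varied. Skap2 and Hibadh beside HoxA were at 11.9 FPKM or more in every library, Skap1 beside HoxB was at 0.107 to 1.63 FPKM, and Evx1 and Evx2, the homeobox genes at the ends of HoxA and HoxD, were at 0. Of 8 flanking genes tested, Calcoco1, beside HoxC, was higher in EpRas cells without TGF-β (log2 difference 1.01, limma adjusted p = 0.0035) and higher with TGF-β in EpH4 cells (0.67, adjusted p = 0.031), and Lnp, beside HoxD, was higher in EpRas than in EpH4 cells when both had TGF-β (0.53, adjusted p = 0.047). Of 20 regulators in the retinoid and Cdx families, 7 were tested. Crabp2, which carries retinoic acid to its receptors, was at 163, 135, 249.2 and 227 FPKM in EpH4 cells, whereas the EpRas libraries had 24.8, 22.4, 12.5 and 8.04 FPKM. It was lower in EpRas cells in both comparisons and lower with TGF-β in EpRas cells (log2 difference -1.15, adjusted p = 0.032). Cdx1, Cdx2 and Cdx4 were listed at 0 in all 14 libraries.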

How the data were processed

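RNA from 14 libraries had been isolated as mRNA, sequenced directionally on the Ion Proton, aligned to mm10 with TopHat2 (2.0.11) and quantified with Cuffdiff (Cufflinks 2.2.0), per the submitters' processing notes and the study's methods. The authors deposited FPKM per gene and library in 2 tables, from separate Cuffdiff runs, with Cuffdiff's interval for each FPKM, also in FPKM. Every per-sample column had a sample (0 were left over). Genes without an OK status were left out (3 and 2 genes). FPKM are relative and not absolute amounts. In the 8 untransfected libraries, median-of-ratios factors of the FPKM were 0.987 to 1.013, while their sums were 502262 to 633763.

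Members were the symbols of the 4 clusters. A member and a cofactor are not reported here and are in no count of members or lists, but stayed in the fits over all genes. Members, lists and comparisons were chosen with earlier results of these data known. All Hox genes at 1 FPKM or more were named, those called and the highest of each cluster with every library's value in the table concerned, and members of the Hox-related lists where called between the lines under one treatment or for TGF-β. Pbx2, Pbx3, Skap2, Hibadh, Mira, Hotair and Hoxb8 were named after their values were seen. For the untransfected groups, limma 3.58.1 (R 4.3.3, eBayes with trend) was fitted to log2(FPKM + 1) over genes at 1 FPKM or more in any library, with 1 mean per group and p-values adjusted by Benjamini-Hochberg over 11683 genes at a threshold of 0.05. The fit was tested on simulated data. siRNA libraries were compared by ratios without a test. Reads were recovered as whole multiples of the smallest step (tolerance 0.03 reads, widening slightly with the count). Python 3.11.15, pandas 2.3.3 and scipy 1.17.1 were used.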

Additional observations from a re-analysis of the deposited data

How the results depend on the processing

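Of the single-gene results under alternatives, 289 stayed on the same side of the threshold, 26 newly passed it, 12 no longer did and 0 reversed. Hoxa5 without TGF-β passed in 17 of 17 alternatives (adjusted p 0.0022 to 0.044) and Hoxa5 with TGF-β in 16 of 17. Of the Hox genes called between the lines without TGF-β (1), 3 were called with a pseudocount of 0.1, and 2 with no filter, with eBayes without trend and with median-of-ratios factors. With TGF-β (1), 2 were called with a pseudocount of 0.1 and 2 with no filter. TGF-β in either line and the difference of its effects gave 0 under every alternative run. The contrast over both treatments (5) gave 1 at a filter of 5 FPKM and 2 at a mean of 1 FPKM. Leaving out 1 library gave 1 to 4, 0 to 4, 0 to 0, 0 to 0, 0 to 0 and 3 to 6 calls in these 6 comparisons, with a lone library assumed to vary like the other groups. With the replicate number as a block they gave 2, 2, 0, 0, 0 and 5. Pairing by these numbers would give positive correlations of deviations between groups, and they were at most 0.076. They were negative between untreated and treated EpRas cells (-0.33) and between untreated EpH4 and untreated EpRas cells (-0.234). The source of these negative values was not tested. A fit of the compared groups only could not be made for the difference of effects, since it needs all 4 groups.

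Knockdown without TGF-β (3) gave 1 by a difference of 1 in log2(FPKM + 1), 5 with pair 2 only and 1 at 5 FPKM. Knockdown with TGF-β (2) gave 1 by that difference and 0 at 5 FPKM. TGF-β in the siRNA libraries (1) gave 0 by that difference and 3 with siNC only. Expressed members were 5 at 2 FPKM, 2 at 5 FPKM and 7 at 1 FPKM in every library of a group in the untransfected table (12), and 7 at 2 FPKM and 3 at 5 FPKM in the siRNA table (11). Unless said, the cause was not tested. Most members had under 50 reads per library, which limits what could be detected.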
